A study of Homo sapiens with 8 samples.

Results

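The integrin and laminin genes were examined as a family of 38 genes among the 20033 protein-coding genes of GENCODE release 44: 18 integrin alpha chains, 8 integrin beta chains, 5 laminin alpha chains, 4 beta chains and 3 gamma chains, chosen by their symbols. H3K27ac, the acetylation of histone H3 at lysine 27 that marks active promoters and enhancers, had been mapped by ChIP-seq in HCEC-1CT, an immortalized human line labelled as colonic epithelial. WT libraries came from 3 populations of parental cells and CREBBP-KO libraries from 3 populations in which the acetyltransferase gene CREBBP (labelled CBP KO) had been knocked out. Both were derived from HCEC-1CT transduced with a doxycycline-inducible Cas9 and grown in the same medium with serum, EGF, insulin, transferrin, selenite and hydrocortisone. The methods call the knockout lines monoclonal but also describe pools of several clones, matched by a pool of parental subclones, and the lists do not read out the edit itself, so the genotype rests on the labels. Whether the 3 libraries of a genotype share a clone or pool is not given, so clonal origin and genotype cannot be told apart. No gene expression was analysed here.

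Integrins are receptors made of an alpha and a beta chain that tie the cytoskeleton to the matrix outside the cell. Laminins, trimers of an alpha, a beta and a gamma chain, are the main adhesive proteins of basement membranes, the sheets on which epithelial cells sit. In gut epithelium, laminin-332 (with the LAMA3 and LAMB3 chains) and the laminin receptors built from ITGA3, ITGA6, ITGB1 and ITGB4 anchor cells to that sheet, whereas LAMA2 and LAMA4 chains are better known from muscle, fibroblasts and vessels.

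The labelled cell type was set against marker genes, with a promoter peak defined as one overlapping the window from 1 kb before to 1 kb after an annotated protein-coding start. Of 10 epithelial markers, EPCAM and KRT8 had a promoter peak in all 6 libraries, KRT18, TP63 and KRT5 in some, and CDH1, KRT19, KRT14, ELF3 and ESRP1 in none. Of 10 colonic and intestinal markers 2 had one in all 6 libraries, MUC2 among them, and 8 had none, including CDX1, CDX2, VIL1, CDH17, HNF4A, LGR5 and CA2. In contrast, 10 of 10 mesenchymal markers, among them VIM, ZEB1, COL1A1 and PDGFRB, had a promoter peak in all 6 libraries, against 1 of 8 leukocyte and 0 of 5 endothelial markers. Of the marker promoters present in all 6 libraries, ZEB1, COL1A1 and MUC2 were called higher in CREBBP-KO (limma, adjusted p = 0.00496, 0.00256 and 0.00203), 12 had no call and 0 were called lower, and their part in the results below was not tested. The acetylated promoters thus went against an epithelial label, in WT and CREBBP-KO alike, and the cells are called HCEC-1CT here.

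Peaks were counted in each gene body and 20 kb either side, 34 separate stretches covering 5.47 Mb. They held 317 to 329 peaks in the WT lists and 364 to 421 in the CREBBP-KO lists. The difference, 324 ± 6.43 against 392 ± 28.5 (SD, n = 3), gave p = 0.1 in the exact two-sided permutation test, the smallest value that 3 libraries against 3 allow. The CREBBP-KO lists were longer throughout, with 99008 to 111697 peaks against 86163 to 93567. The share of each list that fell in these stretches was 0.357% ± 0.00957 in WT and 0.372% ± 0.00466 in CREBBP-KO (SD, n = 3; exact permutation test, p = 0.2).

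The lists hold no reads, so heights were compared by rank within each list. Each deposited fold over local background is therefore also given as a percentile of its own list, where 100 is the highest peak. In the longer CREBBP-KO lists a given fold can take a higher percentile. A fold of 6.65 stood at 74.8 in CREBBP-KO replicate 1 and at 69.4 in WT replicate 3, and the part of list length in the percentiles was not tested. Overlapping peaks of the 6 lists were joined into intervals, and each library took the highest fold in an interval. For the test, these folds were ranked within a library among the tested intervals alone, or among the tested promoters. A shift is the difference between CREBBP-KO and WT in normal scores of that rank (limma, adjusted p under 0.05 for a call), so it is a change relative to the other sites tested and can differ in size or sign from the change in list percentile. Because whole populations were profiled, fewer cells carrying the mark and less mark per cell cannot be told apart.

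The sequences that carry the largest shifts lie inside genes. A window centred on the summit (the highest point of the tallest peak) is given below on the plus strand of hg38 for the largest losses, in intron 3 of ITGA1, intron 1 of ITGA2 and intron 1 of ITGB3, and for the largest gain, in intron 8 of ITGB5. Intron numbers follow the canonical transcript. Capitals mark a match to any of the searched motifs, AP-1 (TGANTCA), CRE (TGACGTCA), TEAD (GGAATG), SP/KLF (GGGCGG) and FOX (TGTTTAC), on either strand. The sole match in these windows was 1 TEAD motif in ITGA1.
ITGA1, 76.4 kb from the start, chr5:52864179-52864379: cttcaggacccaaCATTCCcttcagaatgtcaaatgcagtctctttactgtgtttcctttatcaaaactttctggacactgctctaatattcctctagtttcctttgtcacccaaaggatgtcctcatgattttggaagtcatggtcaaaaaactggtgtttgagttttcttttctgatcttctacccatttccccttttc
ITGA2, 10.0 kb from the start, chr5:52999277-52999477: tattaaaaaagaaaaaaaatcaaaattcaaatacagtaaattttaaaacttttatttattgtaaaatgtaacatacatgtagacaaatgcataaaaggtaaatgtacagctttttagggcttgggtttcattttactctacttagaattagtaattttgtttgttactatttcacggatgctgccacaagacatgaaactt
ITGB3, 0.3 kb from the start, chr17:47254076-47254276: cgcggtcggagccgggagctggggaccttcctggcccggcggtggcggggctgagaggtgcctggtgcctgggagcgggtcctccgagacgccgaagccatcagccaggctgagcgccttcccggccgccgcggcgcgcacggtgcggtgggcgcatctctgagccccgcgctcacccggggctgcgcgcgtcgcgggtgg
ITGB5, 74.9 kb from the start, chr3:124812401-124812601: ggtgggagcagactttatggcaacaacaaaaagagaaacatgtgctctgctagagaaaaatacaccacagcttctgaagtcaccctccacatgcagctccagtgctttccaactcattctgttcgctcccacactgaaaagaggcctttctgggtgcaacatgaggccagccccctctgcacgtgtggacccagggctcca

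The 250 bases before the RefSeq start (GRCh38) are shown for 3 genes with a called promoter. These are the ones whose window held no exon and had a peak over it in at least 5 libraries. The bases are read 5′ to 3′ in the direction of the gene with the same capitals. For LAMA2 the window lies at the canonical start, whereas its call as higher was read at a start 607.6 kb downstream. With canonical starts alone LAMA2 was called lower (limma, shift -0.58, adjusted p = 0.0344). LAMA5 had 5 SP/KLF matches at 82.8% GC, with a peak over the window in 5 libraries, and LAMA2 had 1 TEAD match at its canonical start, while ITGA1 had none of the 5 motifs. Over the 35116 promoters of the RefSeq table, 42.6% held an SP/KLF match and 11.9% a TEAD match in the same 250 bases. RefSeq entries were found for 26 of the 38 genes, and ITGB3 was not among them.
LAMA5, chr20:62367313-62367562, minus strand: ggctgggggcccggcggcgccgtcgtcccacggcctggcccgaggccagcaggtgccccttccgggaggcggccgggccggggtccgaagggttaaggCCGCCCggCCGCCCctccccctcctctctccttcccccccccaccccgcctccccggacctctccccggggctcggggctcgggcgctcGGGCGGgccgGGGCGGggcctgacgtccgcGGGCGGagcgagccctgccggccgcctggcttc
LAMA2, chr6:128882888-128883137, plus strand: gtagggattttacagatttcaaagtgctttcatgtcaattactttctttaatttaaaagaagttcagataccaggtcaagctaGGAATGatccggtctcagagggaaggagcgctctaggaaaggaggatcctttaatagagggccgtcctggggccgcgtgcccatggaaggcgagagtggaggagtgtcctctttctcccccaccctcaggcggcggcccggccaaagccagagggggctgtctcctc
ITGA1, chr5:52787666-52787915, plus strand: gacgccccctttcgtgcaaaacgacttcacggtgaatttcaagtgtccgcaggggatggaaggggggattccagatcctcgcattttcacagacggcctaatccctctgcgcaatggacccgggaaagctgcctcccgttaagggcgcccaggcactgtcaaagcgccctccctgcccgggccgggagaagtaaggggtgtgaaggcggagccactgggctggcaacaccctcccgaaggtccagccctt

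Most of these genes carried acetylated promoters. A promoter peak was present in all 6 libraries at 24 of the 38 genes (63.2%, against 60.6% of all protein-coding genes). The promoter of ITGB1, the beta chain shared by most matrix-binding integrins, stood highest, with folds of 29.4, 30.1 and 34.8 in WT and 37.9, 30.6 and 36.8 in CREBBP-KO, at percentiles of 99.54 to 99.97. It was followed by LAMA2, LAMC1, ITGA5, ITGAV and ITGA3. No library had a promoter peak at 10 genes, among them ITGA8, ITGA9, ITGA11, ITGB6, ITGAD, ITGAL, ITGAM, LAMA1 and LAMC3. Of these, ITGA8, ITGA9, ITGAM and LAMC3 had no peak anywhere in the gene or its flanks in any list. ITGAE had a promoter peak in 5 libraries, all but WT replicate 1, and ITGA2B, ITGAX and LAMB4 in 1 each.

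Of the 24 promoters tested, 6 rose (ITGA4, ITGB5, LAMA2, LAMA4, LAMA5, LAMB2), 3 fell (ITGB3, ITGA1, LAMA3) and 15 had no call, LAMA2 and LAMA3 being read at starts downstream of the canonical one. Over 12147 promoters of all genes, 14.5% were called higher and 14.1% lower. The beta chains ITGB3 and ITGB5, alternative partners of ITGAV, were called in opposite directions. In the plot of promoter percentiles, ITGB3 and LAMA5 show the widest gaps between genotypes.

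**Figure D1:**
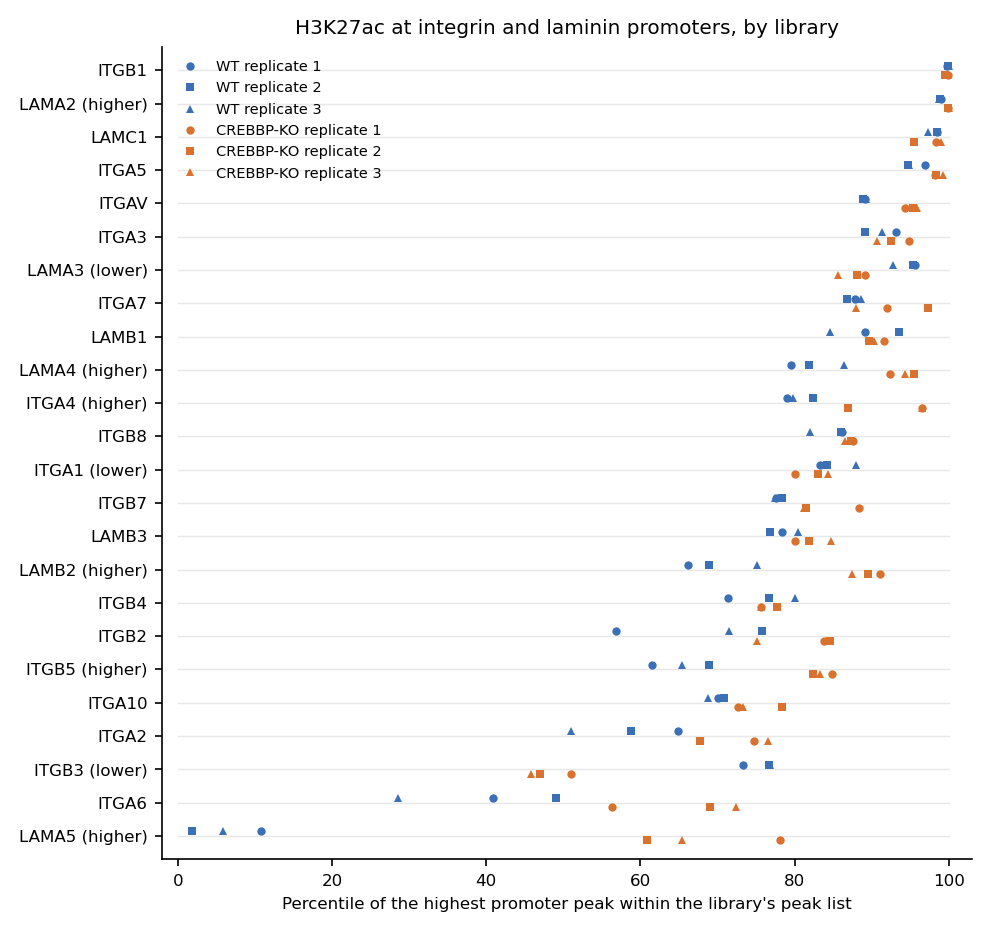
Percentile of the highest promoter peak within the peak list of each library for the 24 genes with a promoter peak in all 6 libraries, ordered by their mean; blue symbols are WT and orange symbols CREBBP-KO replicates, and the words higher and lower mark promoters called by limma (LAMA2 and LAMA3 at downstream starts, LAMA2 being lower at its canonical start). The WT replicates of LAMA5 sit at 1.81 to 10.8 and its CREBBP-KO replicates at 60.8 to 78.1, whereas ITGB1 lies at 99.54 to 99.97.

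Across the whole windows there were 456 intervals, 191 with a peak in all 6 libraries. Of the 133 that also had a fold of at least 5 in all 3 libraries of a genotype and were tested, 28 rose (21.1%), 21 fell (15.8%) and 84 had no call. Among all 34847 intervals tested, 18.6% were called higher and 18.7% lower, so the family as a whole was close to the background. Its median shift was 0.09, against 0.02 over all intervals. At an adjusted p under 0.0001, 2 rose and 5 fell, while 2.8% of all intervals passed that threshold in either direction. Setting aside 31 intervals, those at promoters of other genes alone or in another gene within the flanks, 22 of 102 rose and 18 fell. Intervals at a start of the family were kept even with their summit in another gene, such as those at ITGA7 and ITGAE. By location, 15 of 57 intronic intervals fell and 9 rose, whereas 9 of 27 intervals at the genes' own promoters rose and 3 fell. Among all tested intervals, 14.9% of those outside promoters were called higher and 23.6% lower, and of those at a promoter of any gene 26% and 8.97%, so both classes lay near their own background.

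**Figure D2:**
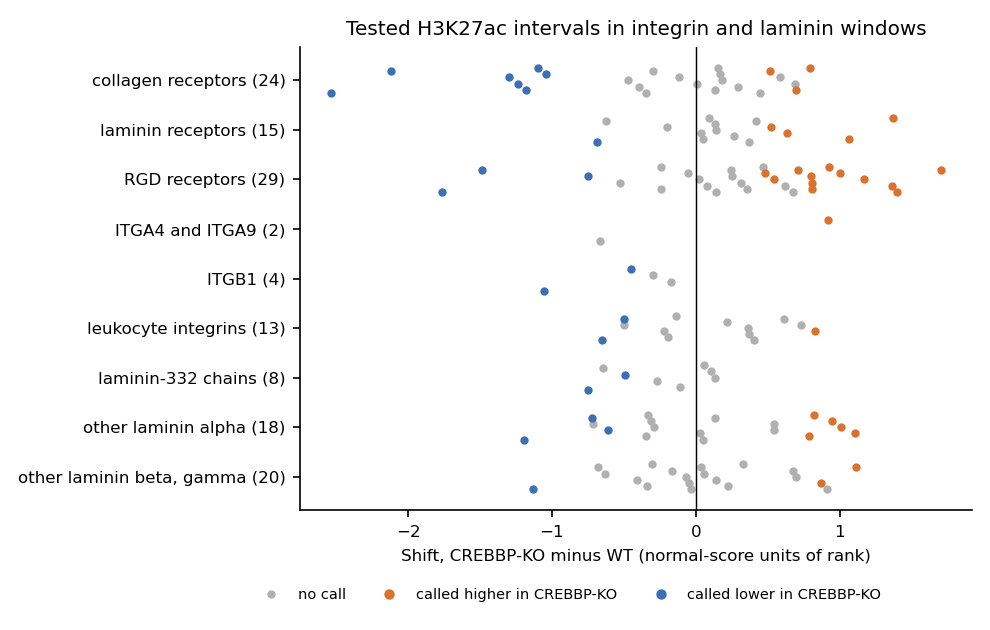
Shift of each of the 133 tested intervals in normal-score units of rank (CREBBP-KO minus WT), grouped by the role of the gene, with the number of intervals in brackets and a vertical scatter that has no meaning; orange points were called higher, blue points lower and grey points neither. The points furthest to the left, at -2.54 and -2.12, lie in ITGA1 and ITGA2, and the point furthest to the right, at 1.71, lies in ITGB5.

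Collagen receptors held the largest losses. ITGA1, ITGA2, ITGA10 and ITGA11 encode the alpha chains that pair with ITGB1 to bind collagens, and 7 of their 24 tested intervals fell and 3 rose, against 18.7% and 18.6% of all intervals. The 7 that fell were 4 in ITGA1 and 3 in ITGA2, neighbouring genes on chromosome 5, and none was at the promoter of these genes. Among all tested intervals outside promoters, 23.6% were called lower and 14.9% higher. The 3 that rose were 1 in an intron of ITGA11, at 9.14, 6.90 and 8.67 against 14.99, 13.9 and 10.2 (shift 0.70, adjusted p = 0.0174), and 2 in the flanks of ITGA10, at another gene and at the promoter of RBM8A.

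The interval in intron 3 of ITGA1 (chr5:52863039-52867095) had folds of 21.9, 21.5 and 19.6 in WT and 5.64, 6.79 and 6.73 in CREBBP-KO. All WT libraries thus stood well above all CREBBP-KO libraries, and the shift of -2.54 ± 0.18 SE (limma, adjusted p = 3.49e-08) was the largest of the family. In percentiles it went from 98.3 ± 0.603 to 71.3 ± 2.39 (SD, n = 3; exact permutation test, p = 0.1). Beside it, in introns 2 and 1, the intervals 68.6 and 59.0 kb from the start also fell. The first had folds of 16.1, 15.8 and 10.95 against 8.10, 8.44 and 7.63 (shift -1.18, adjusted p = 0.000198), and the second 18.6, 17.6 and 15.4 against 9.33, 11.8 and 10.6 (shift -1.10, adjusted p = 7.05e-05). The fourth, 44.3 kb from the start, had folds of 8.79, 7.54 and 5.15 against 5.19, 3.41 and 5.03, whose ranges overlapped (shift -1.24, adjusted p = 0.00779), and it was not called without WT replicate 1 (adjusted p = 0.077).

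The other intronic sites of ITGA1 had no call. The interval 49.5 kb from the start, lying between those that fell, had folds of 15.3, 20.1 and 15.4 in WT and 18.9, 20.6 and 18.9 in CREBBP-KO (shift 0.01, adjusted p = 0.97). At 12.6 kb the folds were 18.8, 14.1 and 15.3 against 19.2, 17.1 and 22.1 (shift 0.13, adjusted p = 0.575). The ITGA1 promoter, shared with PELO, had folds of 9.79, 9.96 and 11.9 in WT and 7.93, 9.65 and 10.6 in CREBBP-KO, which overlapped. It was called lower among promoters (shift -0.62, adjusted p = 0.0179), but not as an interval (shift -0.34, adjusted p = 0.185), not in its percentiles (exact permutation test, p = 0.3) and not without WT replicate 3 or CREBBP-KO replicate 1 (adjusted p = 0.0623 and 0.0732).

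In ITGA2, the interval in intron 1, 10.0 kb from the start, had folds of 8.10, 5.6 and 6.68 in WT and 4.06, 2.28 and 3.26 in CREBBP-KO. All 3 CREBBP-KO values were below all WT values, with a shift of -2.12 ± 0.37 SE (adjusted p = 0.000177). The CREBBP-KO percentiles were 50.4, 0.921 and 31.0, so replicate 2 stood near the bottom of its list. Lists of equal length and a −log10 q minimum of 5 gave no value for this interval. The interval 55.8 kb from the start, in intron 4, fell from 8.79, 13.0 and 6.95 to 5.29, 6.71 and 4.74 (shift -1.30, adjusted p = 0.00268). The third, at 48.2 kb, fell from 6.99, 8.40 and 7.15 to 3.79, 5.88 and 5.97 (shift -1.04, adjusted p = 0.0116). The ITGA2 promoter had folds of 5.76, 5.03 and 4.53 in WT and 6.65, 5.77 and 7.85 in CREBBP-KO and no call (shift 0.10, adjusted p = 0.739). ITGA10 had its highest site within the gene, 17.4 kb from the start, at folds of 28.1, 21.3 and 22.9 in WT and 26.5, 31.5 and 32.5 in CREBBP-KO, without a call.

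**Figure D3:**
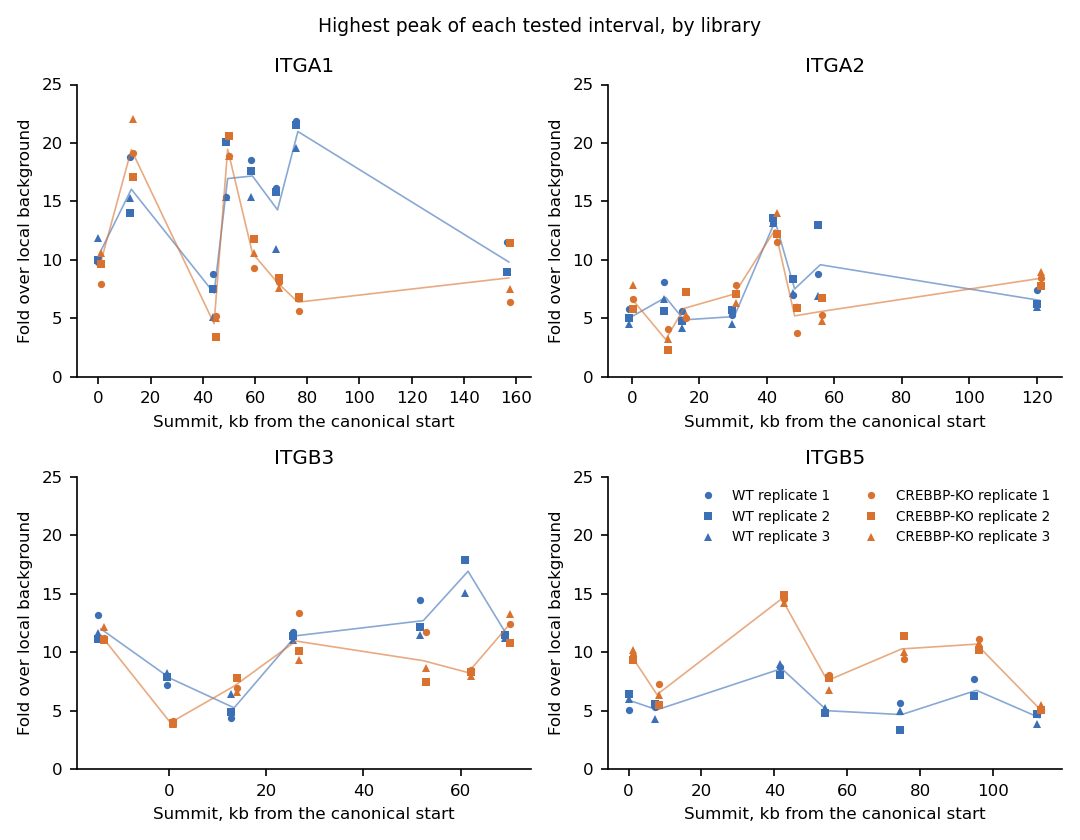
Highest fold over local background in each tested interval of ITGA1, ITGA2, ITGB3 and ITGB5 against the distance of its summit from the canonical start in kb; symbols are the 3 replicates of WT (blue) and CREBBP-KO (orange), and lines join the means of 3. In ITGA1 the genotypes separate between 59.0 and 76.4 kb and meet at 49.5 kb, and in ITGB5 the orange points lie above the blue ones at 5 of 7 sites called higher.

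Integrins that recognise the RGD tripeptide of fibronectin and vitronectin formed the group with most gains. Of 29 tested intervals around ITGA5, ITGA8, ITGAV, ITGA2B, ITGB3, ITGB5, ITGB6 and ITGB8, 12 rose (41.4%) and 3 fell (10.3%), with a median shift of 0.47, beside 18.6% and 18.7% of all intervals. The 3 that fell were all in the window of ITGB3, and the gains were spread over ITGB5 (5), ITGB6 (3), ITGA5, ITGAV, ITGB8 and the window of ITGA2B (1 each).

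ITGB5, a partner of ITGAV in a vitronectin receptor, had gains at 5 of 7 tested intervals. The interval in intron 8 rose from folds of 5.65, 3.34 and 4.99 to 9.42, 11.4 and 10.0, a shift of 1.71 ± 0.31 SE (adjusted p = 0.000277). At 42.0 kb the folds were 8.75, 8.05 and 8.98 in WT and 14.6, 14.9 and 14.2 in CREBBP-KO (shift 0.80, adjusted p = 0.00165). At the ITGB5 promoters, the highest folds were 5.35, 6.40 and 6.01 against 9.66, 9.36 and 10.2, without overlap (shift 0.53, adjusted p = 0.0343). That promoter call was lost when any library other than WT replicate 2 was left out (adjusted p = 0.0603 to 0.0954).

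ITGB3, the beta chain of the other vitronectin receptor and of the platelet fibrinogen receptor, moved the opposite way. Its promoter had folds of 7.18, 7.88 and 8.21 in WT and 4.12, 3.93 and 3.86 in CREBBP-KO, every WT value being higher. Its percentile fell from 75.6 ± 1.98 to 47.95 ± 2.72 (SD, n = 3; exact permutation test, p = 0.1), with a shift among promoters of -1.40 ± 0.19 SE (adjusted p = 0.000163) and as an interval of -1.77 (adjusted p = 8.05e-05). The interval 61.5 kb on, past the end of ITGB3 but inside the overlapping gene ENSG00000259753, fell from 17.9, 17.9 and 15.1 to 8.45, 8.33 and 7.99 (shift -1.49, adjusted p = 5.34e-06). The interval in an intron at 26.1 kb, with folds of 11.8, 11.4 and 11.1 against 13.4, 10.1 and 9.36, had no call (adjusted p = 0.337).

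ITGB6, a partner of ITGAV that is typical of epithelium, had no promoter peak in any library, yet its upstream flank was acetylated in all 6. The interval reaching into the window with its summit 28.0 kb upstream rose from folds of 9.81, 7.86 and 8.70 to 16.7, 19.6 and 18.3 (shift 1.17 ± 0.18 SE, adjusted p = 4.99e-05), and the one 8.5 kb upstream from 14.2, 9.90 and 12.9 to 17.7, 22.5 and 19.7 (shift 0.71, adjusted p = 0.00435). In both, all CREBBP-KO libraries stood above all WT libraries. For ITGB8, a beta chain that binds latent TGF-beta with ITGAV, an interval in intron 1 rose from 6.87, 4.45 and 4.96 to 11.1, 10.4 and 10.3 (shift 1.36, adjusted p = 0.000743), whereas its promoter, at 10.8, 10.6 and 9.60 against 10.9, 11.6 and 11.6, had no call (adjusted p = 0.428).

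For ITGA5, the alpha chain of the main fibronectin receptor, and for ITGAV, the promoter was called higher when ranked among intervals but not among promoters. The ITGA5 folds were 18.4, 15.3 and 16.2 in WT and 21.8, 23.8 and 28.5 in CREBBP-KO (shift 0.54 as an interval, adjusted p = 0.0158; 0.49 among promoters, adjusted p = 0.0763). The ITGAV folds were 12.2, 11.7 and 12.4 against 15.7, 17.9 and 19.2 (shift 0.48, adjusted p = 0.0231; 0.38, adjusted p = 0.116). Near ITGA2B, the platelet chain, the sole tested interval was the promoter of FAM171A2 in its flank, which rose from 3.23, 3.96 and 4.29 to 7.02, 5.87 and 8.53 (shift 1.40, adjusted p = 0.00154).

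ITGB1 had 4 tested intervals, of which 2 fell and 0 rose (limma, with 0 that rose at an unadjusted p under 0.05). Among all intervals tested, 18.7% were called lower and 18.6% higher. The ITGB1 promoter had no call (shift -0.37, adjusted p = 0.206). The 2 that fell lie upstream of the canonical start but inside the gene as annotated from other transcripts. At 47.4 kb upstream the folds were 27.8, 25.9 and 31.2 in WT and 18.9, 22.1 and 21.6 in CREBBP-KO, without overlap (shift -1.05, adjusted p = 0.000162), and at 22.9 kb they were 22.6, 19.0 and 20.6 against 17.1, 20.3 and 20.2 (shift -0.45, adjusted p = 0.033). Both ranked among the 5 highest sites of the family outside promoters.

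The laminin receptors ITGA3, ITGA6, ITGA7 and ITGB4, the last being the hemidesmosome chain that pairs with ITGA6, all had a peak at an annotated start in 6 libraries and none was called. That of ITGB4 lay at a start 33.2 kb downstream, and its canonical start had no peak in any library. ITGA6 promoter folds were 3.79, 4.28 and 3.41 in WT and 4.39, 5.97 and 6.81 in CREBBP-KO. Its percentiles, 39.5 ± 10.3 and 65.9 ± 8.47 (SD, n = 3), did not overlap (exact permutation test, p = 0.1), whereas the shift among promoters was 0.30 (adjusted p = 0.34). ITGA3 stood at 14.6, 11.9 and 13.5 against 16.2, 15.03 and 14.1 (shift -0.16, adjusted p = 0.562). Among 15 tested intervals in this group 4 rose (26.7%) and 1 fell (6.67%), beside 18.6% and 18.7% of all intervals, and the 4 lay outside the canonical bodies of these genes: 2 near ITGB4, 1 at the promoter of METTL7B near ITGA7, and 1 that joins an upstream ITGA7 start with the promoters of CD63, BLOC1S1 and RDH5. The largest of them, in SAP30BP 14.1 kb before ITGB4, rose from 4.37, 3.86 and 3.61 to 6.88, 7.15 and 7.36 (shift 1.37, adjusted p = 0.000868). The METTL7B promoter rose from 4.96, 4.21 and 4.81 to 8.26, 6.85 and 7.30 (shift 1.06, adjusted p = 0.00545). The 1 that fell lies within ITGA6, 11.5 kb from the start, at 12.3, 8.48 and 8.47 against 8.02, 6.603 and 6.86 (shift -0.69, adjusted p = 0.0302).

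ITGA4, which binds fibronectin and VCAM1, had promoter folds of 8.49, 9.39 and 8.97 in WT and 18.4, 11.3 and 20.2 in CREBBP-KO. All CREBBP-KO folds were higher, with CREBBP-KO replicate 2 well below the others (shift 0.86 ± 0.26 SE, adjusted p = 0.0204). In the normal scores that were tested, however, the genotypes overlapped. The call was lost without WT replicate 1 or 3 or without CREBBP-KO replicate 1 or 3 (adjusted p = 0.0577 to 0.102). The leukocyte integrins had promoter peaks in all libraries at ITGB2 and ITGB7 alone among 7 genes, neither called. The ITGB2 peak lay at a start 7.8 kb upstream of the canonical one. At the promoter of ITGAE, whose product binds E-cadherin, an interval rose from 6.83, 6.62 and 9.09 to 13.5, 13.2 and 10.4 (shift 0.83, adjusted p = 0.00731). Its summit lies in the neighbouring gene NCBP3, and it holds the ITGAE promoter peaks of 5 libraries. The peak of WT replicate 1 lay outside the 1 kb promoter window, so ITGAE was not tested among promoters.

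For laminin-332, the laminin of hemidesmosomes, both tested intervals of LAMA3 fell, beside 18.7% called lower and 18.6% higher among all intervals. Of the 3 tested at LAMB3 none was called (limma, with 0 of them higher at an unadjusted p under 0.05). The LAMA3 interval in an intron 28.7 kb from the start had folds of 23.9, 17.3 and 18.5 in WT and 18.3, 18.1 and 16.6 in CREBBP-KO, which overlapped (shift -0.49, adjusted p = 0.0309). The canonical start of LAMA3 was weakly acetylated, with no peak in WT replicate 1, folds of 3.29 and 3.04 in the other WT libraries and 5.01, 4.19 and 4.02 in CREBBP-KO. The tall peak lay at a second annotated start 149.5 kb on (chr18:23836415-23840475), with folds of 16.9, 15.8 and 14.5 in WT and 11.7, 12.0 and 11.2 in CREBBP-KO, so the genotypes did not overlap (shift among promoters -1.10 ± 0.19 SE, adjusted p = 0.000803). The RefSeq start, further downstream, had no peak in any list in the 250 bases before it. LAMB3 promoter folds were 8.33, 7.92 and 9.14 against 7.93, 9.20 and 10.8, without a call (adjusted p = 0.465).

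Among the other alpha chains, LAMA5, the widespread chain of adult epithelial basement membranes, showed the widest change of percentile of any promoter in the family. Its folds were 2.74, 2.29 and 2.60 in WT, close to the bottom of the lists, and 7.41, 4.92 and 5.6 in CREBBP-KO. The percentile rose from 6.14 ± 4.50 to 68.1 ± 8.97 (SD, n = 3; exact permutation test, p = 0.1), with a shift among promoters of 1.35 ± 0.26 SE (adjusted p = 0.00163). The peaks were too low for the fold filter on intervals, so this site is not among the 133. An intronic interval of LAMA5 7.9 kb from the start, at 5.56, 4.55 and 5.41 against 7.37, 5.94 and 6.66, had no call (adjusted p = 0.142).

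LAMA2, a chain of muscle basement membrane, differed between its annotated starts. The highest peak lay at a downstream annotated start 607.8 kb into the gene, with folds of 24.2, 22.1 and 22.2 in WT and 34.3, 39.6 and 43.5 in CREBBP-KO (shift among promoters 0.95 ± 0.19 SE, adjusted p = 0.00196). At the canonical start the folds were 12.7, 11.7 and 11.1 in WT and 9.59, 10.6 and 13.1 in CREBBP-KO. With canonical starts alone LAMA2 was therefore called lower (shift -0.58, adjusted p = 0.0344), although these folds overlapped the percentiles gave p = 0.3 in the exact permutation test, and the interval there had no call (shift -0.29, adjusted p = 0.216). Ranked by -log10 p, the downstream start had no call (shift 0.30, adjusted p = 0.279). Within the gene, an interval in intron 1, 148.8 kb from the start, rose from 10.6, 9.39 and 8.89 to 20.2, 19.4 and 18.5 (shift 1.11 ± 0.17 SE, adjusted p = 5.07e-05), with no overlap. Near the 3′ end, at 628.3 kb, folds of 5.41, 7.18 and 7.07 against 3.15, 4.62 and 5.52 gave a call (shift -1.20, adjusted p = 0.00993) that was lost without WT replicate 2 or 3 or CREBBP-KO replicate 1 (adjusted p = 0.055 to 0.0628) and after removal of GC and length trends (adjusted p = 0.0762).

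**Figure D4:**
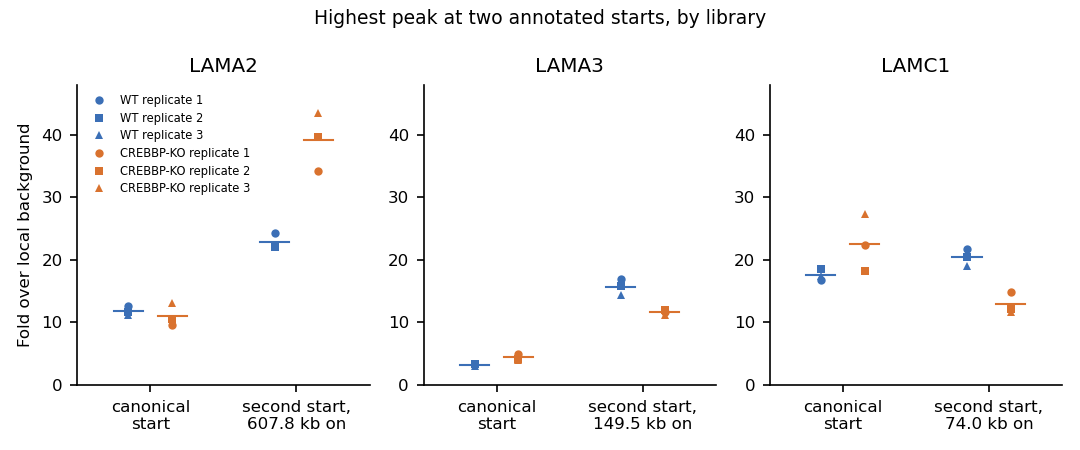
Fold over local background of the highest peak at the canonical start and at a second annotated start of LAMA2, LAMA3 and LAMC1; symbols are WT (blue) and CREBBP-KO (orange) replicates and bars their means, with WT replicate 1 of LAMA3 lacking a peak at the canonical start. At the second start CREBBP-KO lies above WT in LAMA2 (34.3 to 43.5 against 22.1 to 24.2) and below WT in LAMA3 and LAMC1.

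LAMA4, the chain of vascular and mesenchymal basement membranes, rose at its promoter from folds of 8.62, 9.24 and 11.2 to 13.9, 18.1 and 17.3 (shift 0.72 ± 0.19 SE, adjusted p = 0.0114), without overlap, though not without CREBBP-KO replicate 2 (adjusted p = 0.0535). Its tallest sites lay in introns. The interval 50.8 kb from the start, at 27.3, 25.7 and 22.6 against 24.2, 23.6 and 18.8, was called lower (shift -0.61, adjusted p = 0.0136), and the one at 31.8 kb, at 21.0, 18.7 and 18.4 against 23.3, 21.6 and 23.5, was not called (adjusted p = 0.823). LAMA1, the embryonic alpha chain, had no promoter peak.

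Of the beta and gamma chains outside laminin-332, LAMB2 rose and LAMB1 had no call. LAMB2 promoter folds were 5.93, 6.39 and 7.78 in WT and 12.9, 12.8 and 12.1 in CREBBP-KO, without overlap (shift among promoters 0.85 ± 0.18 SE, adjusted p = 0.00278; as an interval 1.11, adjusted p = 0.000671). Ranked by -log10 p, neither was called (adjusted p = 0.153 and 0.0609). LAMB1 stood at 12.2, 14.4 and 10.5 against 13.3, 12.9 and 13.9 (adjusted p = 0.394). LAMC1, the gamma chain of most laminins, again differed between starts. The interval at its second start, 74.0 kb into the gene, fell from 21.7, 20.5 and 19.1 to 14.9, 12.1 and 11.7 (shift -1.14 ± 0.17 SE, adjusted p = 4.80e-05). The canonical start was at 16.8, 18.5 and 17.4 against 22.4, 18.2 and 27.3 and had no call with canonical starts alone (adjusted p = 0.792). The highest LAMC1 promoter peak therefore lay at the second start in WT and at the canonical start in CREBBP-KO, and the gene had no promoter call (adjusted p = 0.402).

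Sites present in a single genotype were few and low. With a fold of at least 3 in all 3 libraries of one genotype and no peak in the other, 4 intervals were found in CREBBP-KO alone and 1 in WT alone, against 1.32% and 0.622% of all 143733 intervals. The 4 were intronic and included sites in LAMA3, ITGA4 and LAMA4, at folds of 3.05 to 4.31. The 1 in WT alone, in an intron of LAMB4, was taller, at 8.09, 7.88 and 6.69.

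The wider adhesion pathway was read through 42 other genes. A promoter peak was present in all 6 libraries at 36 of them, of which 10 rose, 5 fell and 21 had no call, beside 14.5% and 14.1% of all promoters. Among matrix ligands, FN1, which encodes fibronectin, rose from 24.3, 20.0 and 21.2 to 35.5, 36.1 and 35.3 (shift 0.81, adjusted p = 0.00336), as did HSPG2 (perlecan; shift 0.86, adjusted p = 0.0119). NID2, a nidogen that links laminin to collagen IV, fell from 13.3, 13.7 and 17.8 to 7.14, 8.60 and 9.23, without overlap (shift -1.61 ± 0.19 SE, adjusted p = 7.49e-05), and AGRN (agrin) also fell (shift -0.79, adjusted p = 0.00547). Of the adaptors that couple integrins to actin, TLN2 (a talin), PARVA (a parvin), TNS1 and ITGB1BP1 rose and FERMT2 and FERMT3 (kindlins) fell. The folds of FERMT2 and FERMT3 overlapped between genotypes, but their normal scores did not. FERMT1, also a kindlin, had no call (shift 0.46, adjusted p = 0.0705). Its folds were 9.37, 11.6 and 11.7 in WT and 16.3, 16.1 and 16.7 in CREBBP-KO. ILK, PTK2, VCL and PXN had no call either. CD151, a tetraspanin that associates with laminin-binding integrins, rose from 10.3, 11.7 and 12.2 to 35.2, 16.6 and 32.9 (shift 1.60, adjusted p = 0.00373), with CREBBP-KO replicate 2 again below the other two.

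The share of summit windows holding each motif was counted in the family and in all tested intervals. An AP-1 match was found in 2.26% of the 133 intervals and 5.12% of all tested intervals, TEAD in 12.0% and 9.76%, SP/KLF in 15.8% and 17.4%, and FOX in 2.26% and 2.69%. No CRE match occurred in the 133, and 0.0746% of all intervals had one. Outside promoters, 0 of 16 intervals that rose and 0 of 16 that fell held an AP-1 match, against 5.27% and 7.23% of all such intervals. Of the 48 with no call, 2 held one (4.17%). Sets of 16 are too small to tell 0 matches from shares this low. These shares describe letters in a window centred on acetylation, not binding sites.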

How the data were processed

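H3K27ac ChIP-seq of 3 WT and 3 CREBBP-KO populations of HCEC-1CT was used, and groups follow the genotype labels. The input libraries were not analysed here. The authors deposited narrow peak lists (nf-core ChIP-seq pipeline, MACS2, hg38; BWA per the labels). Column 7 of the deposited lists holds the fold over local background, a ratio, and columns 8 and 9 hold −log10 p and −log10 q. The lowest −log10 q in every list was 1.3. Reads were downsampled by the authors before their own differential analysis; whether the lists precede that step is not given in the sources used here. Depth per library is unknown, because the lists give no read counts, so no counting interval is given.

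Intervals were formed by joining overlapping peaks, and each library took the highest fold in an interval. Intervals with a peak in all 6 libraries and a fold of at least 5 in all 3 libraries of a genotype were tested: ranks within a library among these intervals were turned into normal scores and fitted with limma 3.58.1 (R 4.3.3; empirical Bayes with trend, Benjamini-Hochberg over all intervals tested). Promoters within 1 kb of a GENCODE 44 protein-coding start were fitted likewise. Percentiles were compared by an exact two-sided permutation test. Other tools were Python 3.11.15, pandas 2.3.3, scipy 1.17.1 and pysam 0.24.0. The fits were tested on simulated data.

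Members, gene lists and markers were chosen with earlier results of these data known. Named sites were all called promoters, the 6 promoters with the highest mean percentile, the 8 intervals with the largest called shift in each direction whose normal scores did not overlap between genotypes and the 5 highest other sites and those peaked in a single genotype. Further sites in the same genes were named after their values were seen. Same-numbered libraries deviated together only weakly (r = 0.0106 to 0.0281), so no pairing was used in the main fits. Alternatives covered flank, promoter width, start, fold and q minimum, ranking by −log10 p, list length, trend, GC and length, replicate block and each library left out. Values of a few genes are not reported here.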

Additional observations from a re-analysis of the deposited data

How the results depend on the processing

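The 28 intervals called higher and 21 called lower became 18 (of 91 tested) and 20 without flanks and 18 and 13 (of 60) at a fold of at least 10, and ranged over 19 to 40 and 18 to 29 under the other settings. Leaving out single libraries gave 22 to 29 and 16 to 20 for intervals, and 4 to 6 and 2 to 3 for promoters. Lists of equal length gave 28 and 20 intervals and 6 and 3 promoters. A replicate block gave 28 and 23 intervals and 6 and 3 promoters, and with GC and length trends also removed 23 and 22 intervals. Same-numbered libraries correlated at r = 0.0106, 0.0142 and 0.0281, and differently numbered ones at -0.0247 to 0.0119. WT replicates 2 and 3 correlated best with their same-numbered library, and WT replicate 1 with CREBBP-KO replicate 2 (0.0119). All these values were small, so the numbers were not taken as pairs. The excess of 67.33 peaks per CREBBP-KO library in the family's windows was 22.67 when a −log10 q of 5 was the minimum and 14.67 among peaks of fold at least 5; it was 52.67 to 81.17 with a library left out. The LAMA2 promoter reversed to -0.581 (adjusted p = 0.0344) with canonical starts alone, because another start is then read. The LAMA2 and LAMB2 promoters lost their calls when ranked by −log10 p; the cause was not tested. Of the values for single promoters under these settings, 109 kept direction and call, 14 lost the call and 1 reversed. For single intervals 221 kept both and 6 lost the call. Settings that gave no value for a site are not counted. With a −log10 q minimum of 5, the LAMA5 promoter had none. Neither did the intervals of ITGA2 at 10.0 kb, ITGA1 at 44.3 kb and LAMA2 at 628.3 kb. ITGA2 at 10.0 kb also had none with lists of equal length. The lists give no read depth, so low peaks such as those of LAMA5 in WT carry an unknown counting error.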
